A study of Homo sapiens with 6 samples.

Results

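The 10 genes described here encode Eph receptor tyrosine kinases (EPHA1, EPHA2, EPHA4, EPHB2, EPHB3 and EPHB4) and their membrane-bound ligands, the ephrins (EFNA1, EFNA4, EFNB1 and EFNB2). They were taken by symbol from a table of 60605 genes, in which each of the 10 had 1 row. They were measured in SW620 cells, an established line of human colorectal cancer taken from a metastasis in a lymph node. The 3 vector libraries came from cells infected with lentivirus of the empty plasmid pLVX-IRES-Puro, and the 3 ELAPOR1 libraries from cells infected with the same plasmid carrying ELAPOR1, a membrane protein of endosomes and lysosomes. Infection was at a multiplicity of 20 in both groups, followed by selection with puromycin at 2 ug/ml, so selection and vector backbone are common to all libraries. Each group is a selected population of transduced cells. Whether the 3 libraries of a group are separate cultures or transductions is not in the labels. The p-values therefore cover the spread among these libraries alone, and that spread may be technical.

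Eph receptors and ephrins signal where cells touch. A-type ephrins are held in the membrane by a lipid anchor and mostly bind EphA receptors, B-type ephrins span the membrane and mostly bind EphB receptors, and binding signals into both the receptor-bearing and the ephrin-bearing cell, often as repulsion. In the intestinal crypt, EPHB2 and EPHB3 are Wnt target genes that are high at the crypt base, ephrin-B ligands are higher toward the villus or surface, and this opposition positions and separates cells. EPHA2 is also known in epithelial cells for signalling without ligand, and EPHB4 with ephrin-B2 for separating arteries from veins.

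The libraries held between 16401813 and 20571924 counts. ELAPOR1 itself had 144 to 227 counts in the vector libraries and 349496 to 404278 in the ELAPOR1 libraries, as labelled. Counts were compared with edgeR's quasi-likelihood test over all genes, and a gene was called at a Benjamini-Hochberg adjusted p under 0.05. Levels are given as the FPKM values deposited by the authors (counts scaled to exonic length and library total), so that genes of different length can be compared, and as mean ± SD over n = 3 libraries. Of 11 colon epithelial markers 10 were tested. The 11 summed to 8438 to 8833 CPM in vector and 7854 to 7868 CPM in ELAPOR1 libraries, mostly from KRT8 and KRT18. CPM are counts scaled to a common library total, with TMM factors. Of the tested markers 5 were lower, among them CDH1, at -0.76 on the log2 scale. The 1 that was higher was CDH17, at 1.05 (adjusted p 7.1e-12 by edgeR). CDX1 was nearly absent, with 3 counts in all. The 8 fibroblast markers summed to 17.5 to 18.8 CPM and 24.9 to 30.2 CPM, mostly from LUM. LUM was called higher in ELAPOR1 cells, by 0.64 on the log2 scale (adjusted p 3.9e-07 by edgeR). COL1A1 had 275 counts, PDGFRB 80, DCN 2 and COL3A1 1 in all 6 libraries. Immune markers summed to 5.66 to 7.92 and 7.86 to 8.36 CPM with MS4A1 at 0, endothelial markers to 2.47 to 2.73 and 1.97 to 2.81 CPM with CDH5, KDR and TEK at 0, and kidney or neural markers to 177 to 184 and 197 to 206 CPM, almost all from SYT1, with UMOD and SLC34A1 at 0. The part of these markers in the results was not tested. In bulk RNA, fewer cells of a type and less RNA per cell cannot be told apart.

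All 10 genes passed the filter on low counts. EPHB2, EPHA2, EPHA4 and EFNA4 were higher in ELAPOR1 cells and EFNB2 was lower, and the other 5 did not pass the threshold. That is 5 of 10, where 21.4% of all 16003 tested genes were called, 10.0% as higher and 11.4% as lower. The 10 genes were chosen with earlier results of these data known, so this share is a description only. With limma on log2(FPKM + 1) all genes split into 727 higher and 1406 lower, against 1607 and 1820 here, and 4 of the 10 genes were called. CPM values of the groups did not overlap for 6 of the 10 genes, the 5 called and EPHB4, against 33.8% of all tested genes. The median log2 fold change of the 10 was 0.03 and the median absolute change 0.17, beside 0.00407 and 0.14 over all tested genes, and the median over the called genes of the whole table was 0.28 in absolute value.

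In vector cells the order of levels ran from EFNB2 (74.3 ± 1.15 FPKM) and EPHA2 (31.2 ± 1.52) through EFNB1 (17.5 ± 0.706), EPHB2 (10.5 ± 0.485), EFNA1 (8.68 ± 0.898) and EPHB3 (4.53 ± 0.226) to EPHA1 (1.22 ± 0.0493), EPHA4 (1.06 ± 0.0850), EPHB4 (0.847 ± 0.0643) and EFNA4 (0.650 ± 0.0173). No neighbours in this order overlapped between libraries. By level EFNB2 stood at the 97.1 percentile of tested genes, EPHA2 at 91.2 and EPHB2 at 72.8, while EPHB4 and EFNA4 stood at 22.2 and 18.4. In ELAPOR1 cells the upper 6 kept their order and EFNA4, EPHA4 and EPHA1, at 1.44 ± 0.424, 1.42 ± 0.0115 and 1.17 ± 0.281 FPKM, overlapped.

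**Figure D1:**
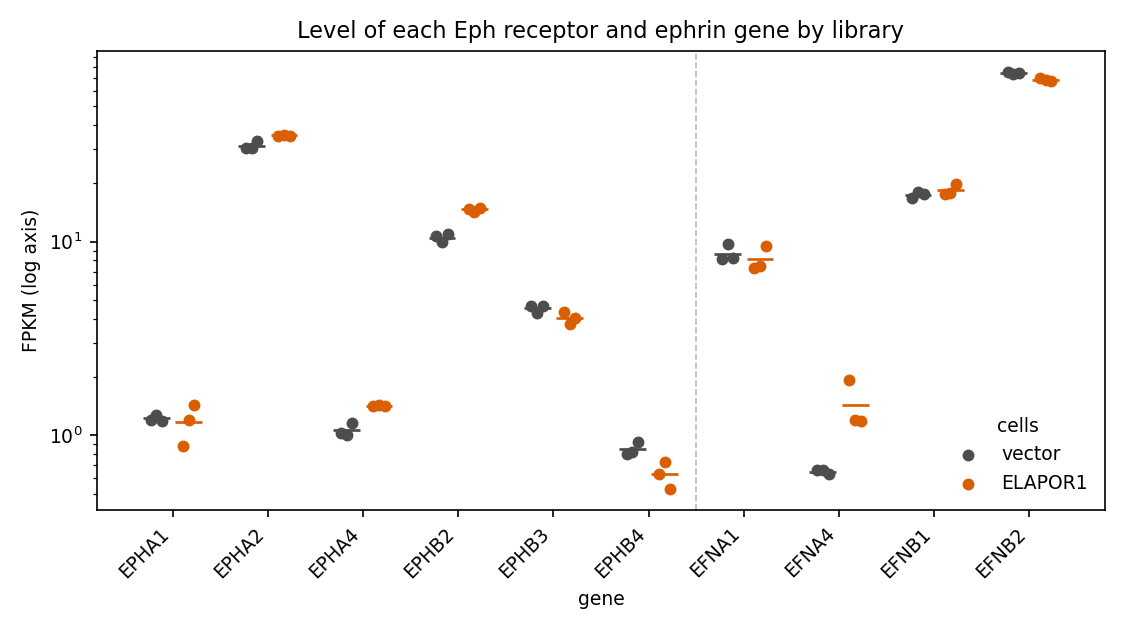
FPKM on a log axis for each gene (receptors left of the dashed line, ligands right) in the 3 vector libraries (grey) and the 3 ELAPOR1 libraries (orange). Points are libraries and bars are group means. EPHB2 is separated between groups at 10.5 and 14.7 FPKM on average, while EFNB2, the most abundant, differs little.

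EPHB2, the EphB receptor of the crypt base (ENSG00000133216, GRCh38 chromosome 1, 22710839 to 22921500, plus strand), showed the clearest change. Its FPKM was 10.64, 9.96 and 10.90 in vector libraries 1 to 3 and 14.73, 14.31 and 14.98 in ELAPOR1 libraries 1 to 3. Every ELAPOR1 library lay above every vector library, and the gap between groups was larger than the range within either. The rise was 1.42-fold, or 0.51 on the log2 scale (SE 0.040, 95% interval 0.43 to 0.59, adjusted p 1.53e-17 by edgeR). It rests on 2237 to 3452 counts per library and passed the threshold under all 16 alternative settings, with log2 fold changes of 0.45 to 0.53. EPHB2 lies 107 kb beyond EPHA8, another receptor gene, which had 5 counts in all 6 libraries together.

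EPHB3, the receptor that acts with EPHB2 in the crypt (ENSG00000182580, chromosome 3, 184561785 to 184582408, plus strand), did not pass the test. FPKM was 4.64, 4.27 and 4.68 in vector and 4.36, 3.77 and 4.05 in ELAPOR1 libraries. The groups overlapped, on 325 to 408 counts per library. Its log2 fold change was -0.14 (SE 0.096, adjusted p 0.344 by edgeR), and the 95% interval of -0.33 to 0.05 lies wholly below that of EPHB2. The ratio of EPHB2 to EPHB3 FPKM was 2.29, 2.33 and 2.33 in vector and 3.38, 3.80 and 3.70 in ELAPOR1 libraries, without overlap. EPHB4, the receptor of ephrin-B2 in vessels, was scarce, with 61 to 109 counts per library. Its FPKM was 0.80, 0.82 and 0.92 in vector and 0.63, 0.73 and 0.53 in ELAPOR1 libraries, and all ELAPOR1 values were lower. Its log2 fold change of -0.40 (SE 0.19) had an unadjusted 95% interval of -0.79 to -0.02, but the adjusted p by edgeR was 0.132, so it was not called. EPHB4 overlaps SLC12A9 on the other strand, which had 1287 counts against 524 for EPHB4 and a log2 fold change of -0.19 (adjusted p 0.293).

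Summed over the EphB receptors, EPHB1 and EPHB6 included, FPKM was 20.9 ± 0.705 in vector and 24.3 ± 0.528 in ELAPOR1 cells. EPHB2 supplied 50.2% ± 0.646 of that sum in vector and 60.3% ± 2.42 in ELAPOR1 cells. EPHB6, a receptor that lacks kinase activity, stood at 5.03 ± 0.0473 and 4.97 ± 0.734 FPKM.

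EPHA2, the main EphA receptor of these cells and of many carcinomas (ENSG00000142627, chromosome 1, 16124337 to 16156069, minus strand), was 30.3, 30.4 and 33.0 FPKM in vector and 35.3, 35.6 and 35.1 FPKM in ELAPOR1 libraries. The groups did not overlap, and vector library 3 was the vector library nearest to them. It rose 1.15-fold, or 0.20 on the log2 scale (SE 0.041, 95% interval 0.12 to 0.28, adjusted p 0.000106 by edgeR), on 2241 to 2837 counts per library. The call was lost in 1 of 16 alternatives, limma on log2(FPKM + 1) with no filter, at an adjusted p of 0.0584.

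EPHA4, a receptor that binds ephrins of both classes (ENSG00000116106, chromosome 2, 221418027 to 221574202, minus strand), was far lower, at 151, 156 and 144 counts in vector and 175, 208 and 191 in ELAPOR1 libraries. In FPKM these are 1.03, 1.00 and 1.16 against 1.41, 1.43 and 1.41. The ELAPOR1 values were higher in each library and nearly equal to one another. The rise was 0.43 on the log2 scale (SE 0.13, 95% interval 0.17 to 0.70, adjusted p 0.0113 by edgeR). The adjusted p was 0.0586 with DESeq2, 0.0564 without vector replicate 2, 0.0992 and 0.0974 with limma on FPKM at pseudocounts of 1 and 0.1, and 0.267 with no filter on FPKM, so this call depends on the test. In the authors' deposited table EPHA4 stood at 0.43 (adjusted p 0.0138), and that table called the same 5 of the 10 genes in the same directions.

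EPHA1 (ENSG00000146904, chromosome 7, 143390289 to 143408856, minus strand), expressed in many epithelia, was 1.20, 1.28 and 1.19 FPKM in vector and 0.88, 1.20 and 1.44 FPKM in ELAPOR1 libraries, on 68 to 124 counts. The groups overlapped, and the ELAPOR1 libraries were spread more widely. Its log2 fold change was -0.03 (SE 0.18, 95% interval -0.39 to 0.32, adjusted p 0.931 by edgeR). It overlaps ZYX, the focal adhesion gene zyxin, on the other strand. ZYX had 4025 counts in all against 624 for EPHA1 and fell by 0.31 on the log2 scale (adjusted p 0.000952), and the use of strand in counting was, in the sources used here, not given. Of the 50-base words in EPHA1 transcripts, 0.545% are shared with any other gene, ZYX included. Summed EphA FPKM was 34.9 ± 1.64 in vector and 39.2 ± 0.654 in ELAPOR1 cells, and EPHA2 made up 89.6% ± 0.410 and 90.2% ± 1.29 of it.

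**Figure D2:**
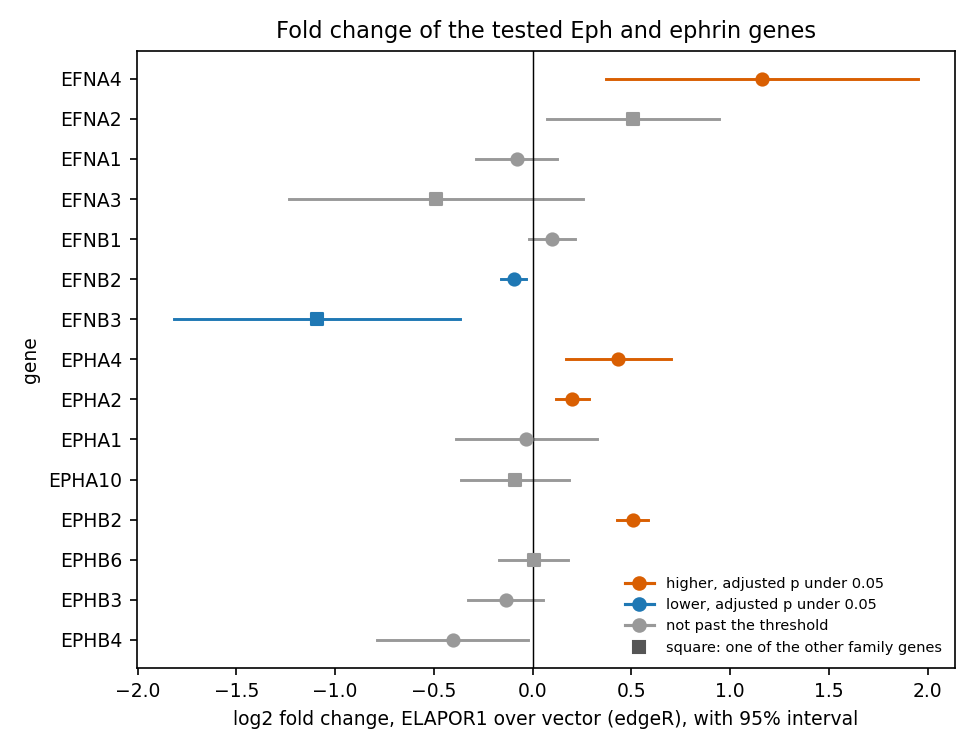
Log2 fold change of ELAPOR1 over vector by edgeR for the 15 Eph and ephrin genes tested, with the unadjusted 95% interval as a line; circles are the 10 genes described and squares the other family genes. EPHB2 at 0.51 and EPHA2 at 0.20 have narrow intervals above 0, while EFNA4 at 1.16 and EFNB3 at -1.09 have wide ones.

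Among the ligands, EFNB2 (ephrin-B2, ENSG00000125266, chromosome 13, 106489745 to 106535662, minus strand) was by far the most abundant and fell slightly. It measured 75.5, 73.2 and 74.2 FPKM in vector and 69.6, 68.45 and 67.5 FPKM in ELAPOR1 libraries. The groups did not overlap, with a gap of a few FPKM between the lowest vector and the highest ELAPOR1 library. It was 1.07-fold lower, or -0.10 on the log2 scale (SE 0.031, 95% interval -0.16 to -0.03, adjusted p 0.0195 by edgeR), on 5731 to 7537 counts per library. The adjusted p was 0.0574 without vector replicate 3, 0.0670 without ELAPOR1 replicate 2 and 0.104 without ELAPOR1 replicate 3, with log2 fold changes of -0.10, -0.09 and -0.09. In the authors' deposited table EFNB2 stood at -0.10 (adjusted p 0.00510). An antisense transcript with 670 counts in all, against 39370 for EFNB2, overlaps it.

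EFNB1 (ephrin-B1, ENSG00000090776, chromosome X, 68829021 to 68842160, plus strand) was 16.7, 18.1 and 17.7 FPKM in vector and 17.7, 17.9 and 19.8 FPKM in ELAPOR1 libraries. The groups overlapped on 956 to 1232 counts per library, and the log2 fold change was 0.10 (SE 0.058, 95% interval -0.02 to 0.21, adjusted p 0.245 by edgeR). The ratio of EFNB2 to EFNB1 FPKM was 4.51, 4.04 and 4.21 in vector and 3.94, 3.82 and 3.41 in ELAPOR1 libraries, without overlap. Ephrin-B FPKM summed to 92.5 ± 0.547 and 87.3 ± 0.547. EFNB2 alone made up 71.3% ± 1.32 of all ephrin FPKM in vector and 68.9% ± 1.56 in ELAPOR1 cells, ranges that overlapped.

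EFNA4 (ephrin-A4, ENSG00000243364, chromosome 1, 155063737 to 155069553, plus strand) had the highest log2 fold change of the 10 genes and the fewest counts. There were 16, 17 and 13 counts in vector and 40, 29 and 27 in ELAPOR1 libraries, or 0.66, 0.66 and 0.63 FPKM against 1.93, 1.20 and 1.19 FPKM. All ELAPOR1 values were higher, and library 1 stood above the other two. This was 1.16 on the log2 scale, 2.24-fold (SE 0.40, 95% interval 0.37 to 1.95, adjusted p 0.0255 by edgeR). Leaving out ELAPOR1 replicate 1 gave 0.90 (adjusted p 0.212). Without vector replicates 1, 2 or 3 the adjusted p was 0.0591, 0.0651 or 0.0695, with DESeq2 0.0674, and with limma on log2(FPKM + 1) and no filter 0.112. The authors' deposited table gave EFNA4 1.17 on the log2 scale (adjusted p 0.0213).

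EFNA4 begins a cluster of ephrin-A genes that spans 71.2 kb on chromosome 1. EFNA3 starts 9.28 kb beyond its end and EFNA1 a further 40.3 kb on. EFNA3 had 15 to 38 counts per library and a log2 fold change of -0.49 (95% interval -1.23 to 0.26, adjusted p 0.401 by edgeR). EFNA1 (ephrin-A1, ENSG00000169242, 155127876 to 155134899, plus strand), the main ephrin-A of these cells and a ligand of EPHA2, was 8.14, 9.72 and 8.19 FPKM in vector and 7.33, 7.53 and 9.45 FPKM in ELAPOR1 libraries. Those values overlapped, on 261 to 433 counts, and the log2 fold change was -0.08 (SE 0.10, 95% interval -0.29 to 0.12, adjusted p 0.655). Of the 3 neighbouring ligand genes, EFNA4 alone passed the test, and its call was lost in 6 of 16 alternatives. A readthrough transcript joining EFNA4 and EFNA3 was listed at 0 counts in all 6 libraries. How reads that fit both it and either gene were counted was not given in the sources used here. This 0 therefore does not show that the transcript was absent, and EFNA4 and EFNA3 may have lost such reads. It shares 10.7% of the 50-base words in EFNA4 transcripts and 42.2% of those in EFNA3 transcripts, so EFNA3 may have lost more. Ephrin-A FPKM summed to 11.7 ± 0.881 in vector and 12.1 ± 0.713 in ELAPOR1 cells, and these sums overlapped.

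Receptors and ligands were also summed over the family. Receptor FPKM was 54.8, 54.2 and 58.3 in vector and 63.3, 64.2 and 63.0 in ELAPOR1 libraries. Ligand FPKM was 104.0, 104.6 and 104.0 in vector and 99.2, 98.5 and 100.4 in ELAPOR1 libraries. Neither sum overlapped between groups, so the ratio of receptor to ligand FPKM went from 0.535 ± 0.0221 to 0.639 ± 0.0124. EPHA2 and EPHB2 together made up 74.8% ± 0.480 of receptor FPKM in vector and 78.8% ± 1.01 in ELAPOR1 cells. No test was made of these sums. The library total behind FPKM includes ELAPOR1 itself, at 10.4 CPM on average in vector and 21126 CPM in ELAPOR1 cells. This lowers the FPKM of other genes in ELAPOR1 libraries, and its part in the sums was not tested.

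**Figure D3:**
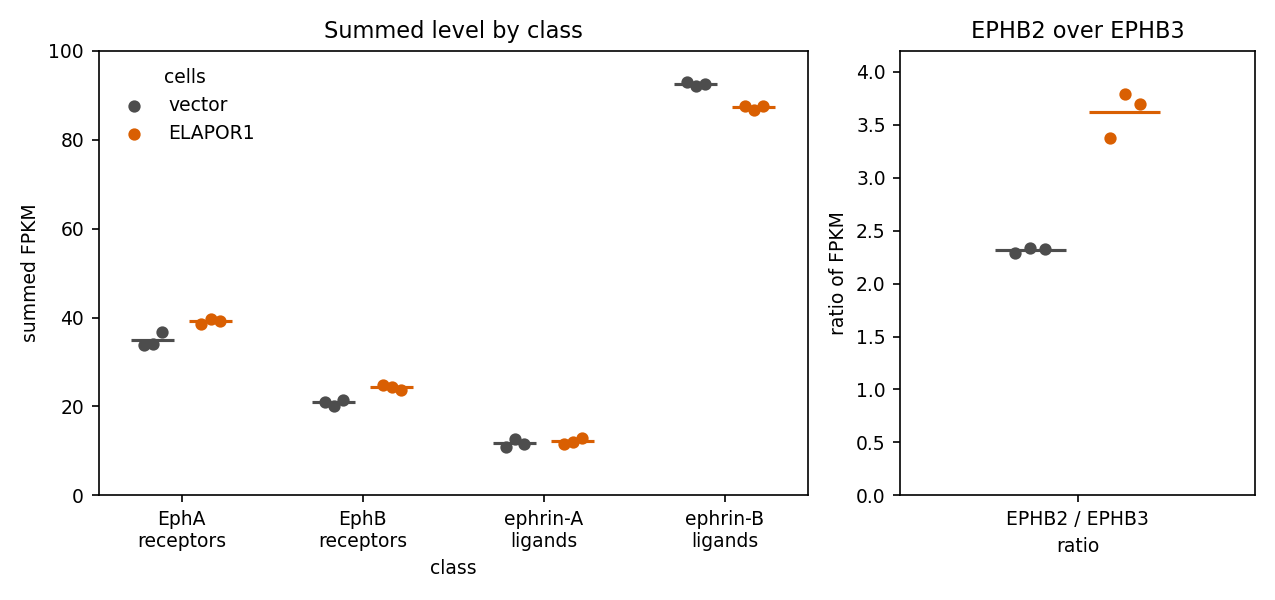
Left, FPKM summed over each class in each library; right, the ratio of EPHB2 to EPHB3 FPKM. Grey points are vector libraries, orange points ELAPOR1 libraries and bars group means. Both receptor sums are higher in ELAPOR1 libraries and the ephrin-B sum is lower, the ephrin-A sums overlap, and the ratio is 2.29 to 2.33 in vector and 3.38 to 3.80 in ELAPOR1 libraries.

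Of the 12 other Eph and ephrin genes, 5 were tested and 1 was called, a share near the 21.4% of all tested genes. EFNB3 (ephrin-B3), known from the nervous system, fell from 0.667 ± 0.139 to 0.307 ± 0.0473 FPKM on 17 to 51 counts per library, which is -1.09 on the log2 scale (SE 0.36, adjusted p 0.0216 by edgeR). That p became 0.0567 with DESeq2, 0.0887 to 0.114 with limma on FPKM, 0.116 without vector replicate 1, 0.0682 without ELAPOR1 replicate 2 and 0.0597 without ELAPOR1 replicate 3. EFNA2 stood at 0.51 (adjusted p 0.0898), EPHA10, a receptor without kinase activity, at -0.09 (0.724) and EPHB6 at 0.00478 (0.983). The other 7 had too few counts to be tested. EPHA3, EPHA5 and EPHA7 were at 0 in all 6 libraries, which together allow up to 0.0272 CPM (3 counts of the total, for counting error only), and EPHA6, EPHA8, EPHB1 and EFNA5 had at most 14 counts in any library. EFNA5 had 4, 10 and 14 counts in vector and 3, 2 and 0 in ELAPOR1 libraries.

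Sequence shared with other genes limits how reads can be assigned. Of the 50-base words in the GENCODE 29 transcripts of each gene, none were shared with another gene for EPHB3, EFNA1 and EFNB1, and 0.545% or fewer for EPHA1, EPHA2, EPHB2 and EPHB4. EPHA2 and EPHB2 shared 10 words, and none of the 10 genes shared a word with ELAPOR1. For EPHA4, EFNA4 and EFNB2 the shares were 3.90%, 10.7% and 21.6%, in each case with an overlapping antisense or readthrough transcript. Those transcripts had 7, 0 and 670 counts in all libraries. Reads from shared sequence may have been left out or given to either gene, so these counts do not measure the effect of sharing.

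The 250 bases before the RefSeq start (GRCh38.p14) are shown for the clearest riser EPHB2, its crypt partner EPHB3, which did not pass the test, EPHA2, which rose with EPHB2, and EFNB2, which fell. Each is read 5′ to 3′ on the strand of the gene: EPHB2 chr1:22710588-22710837 (plus, 1 of 2 listed starts a base apart), EPHB3 chr3:184561535-184561784 (plus), EPHA2 chr1:16156070-16156319 (minus) and EFNB2 chr13:106535663-106535912 (minus). Capitals mark 4 motifs searched on both strands: CTTTGA (core of the TCF/LEF site of Wnt signalling), GGGCGG (GC box), TGACGTCA (the palindromic cAMP response element) and ACGTG (core of the hypoxia response element).
EPHB2: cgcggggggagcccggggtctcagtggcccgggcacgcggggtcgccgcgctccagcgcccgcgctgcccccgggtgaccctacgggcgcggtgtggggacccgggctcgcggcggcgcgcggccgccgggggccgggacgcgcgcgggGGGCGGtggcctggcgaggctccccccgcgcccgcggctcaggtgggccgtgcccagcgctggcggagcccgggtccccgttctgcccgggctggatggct
EPHB3: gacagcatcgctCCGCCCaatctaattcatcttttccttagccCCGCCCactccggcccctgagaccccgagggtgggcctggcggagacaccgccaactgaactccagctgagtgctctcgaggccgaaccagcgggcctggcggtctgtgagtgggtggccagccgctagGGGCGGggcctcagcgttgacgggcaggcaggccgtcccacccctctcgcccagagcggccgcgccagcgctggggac
EPHA2: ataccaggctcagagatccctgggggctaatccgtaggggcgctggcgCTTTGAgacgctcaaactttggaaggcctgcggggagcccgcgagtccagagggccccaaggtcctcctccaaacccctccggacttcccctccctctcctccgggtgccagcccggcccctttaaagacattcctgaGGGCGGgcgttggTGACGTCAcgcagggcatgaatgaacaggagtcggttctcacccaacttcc
EFNB2: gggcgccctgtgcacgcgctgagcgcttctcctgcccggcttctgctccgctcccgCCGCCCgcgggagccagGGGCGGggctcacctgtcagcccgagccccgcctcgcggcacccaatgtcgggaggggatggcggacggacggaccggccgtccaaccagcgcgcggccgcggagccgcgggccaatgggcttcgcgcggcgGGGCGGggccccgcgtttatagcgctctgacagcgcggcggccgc

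The 10 genes have 12 windows of 250 bases before a start, as EPHA4 and EPHB2 have more than 1. A gene was counted if any of its windows matched. In these windows the GC box was found for all 10 genes, against 42.6% of the 35116 promoters in the RefSeq table. The shares over all promoters count each promoter singly and were not matched for G or C content. CTTTGA was found for 1 of the 10, EPHA2, 202 bases before the start, against 11.2% of all promoters. TGACGTCA was also found for EPHA2, 51 bases before the start, against 1.65%, and ACGTG for 1, EPHA4, in only 1 of its windows, against 18.5%. No matches of different motifs overlapped. EPHB2 and EPHB3, of which EPHB2 alone was called, both held GC boxes and none of the other 3 motifs. The window of EPHB2 was 84.8% G or C and that of EPHB3 70.0%, beside a median of 58.0% over all promoters. Every window of the 10 genes lay above that median except 1 of EPHA4, at 43.2%. A match is a description of the letters and not a site in use.

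Genes that act directly next to Eph receptors and ephrins were taken as 4 lists of 60 genes in all. Of these 51 were tested. Their counts are given list by list, to be read beside the 21.4% of all tested genes that were called, and they cover these 4 lists alone. These lists too were chosen with earlier results of these data known. Among cytoplasmic kinases and phosphatases 2 of 12 rose and 3 fell. SRC, a kinase recruited by active Eph receptors, rose from 34.8 ± 2.36 to 42.9 ± 1.56 CPM, while ACP1, a low molecular weight phosphatase that acts on Eph receptors, fell from 174 ± 4.76 to 149.8 ± 6.60 CPM, and LYN, a relative of SRC, from 54.5 ± 2.95 to 47.8 ± 1.93 CPM. The adjusted p for these by edgeR were 0.000518, 1.40e-05 and 0.0172. That of LYN was 0.0693 with DESeq2, 0.155 without vector replicate 2 and 0.0986 without ELAPOR1 replicate 1.

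Of 14 exchange factors and GTPase-activating proteins, 1 was called. NGEF (ephexin), an exchange factor that acts downstream of EPHA4, rose from 13.2 ± 0.615 to 16.3 ± 0.208 CPM, with an adjusted p of 0.0353 by edgeR. That call did not hold in 9 of 16 alternatives, among them DESeq2 at 0.120, library sizes alone at 0.0521 and 5 of 6 left-out libraries, at up to 0.112. Of 18 adaptors and scaffolds, GRB7 rose by 0.28 on the log2 scale (adjusted p 0.0116, but 0.0674 with DESeq2 and 0.195 without vector replicate 2, where the log2 fold change was 0.18) and GRB2 fell by 0.14 (adjusted p 0.00140). Of 7 genes of shedding and turnover none rose and 2 fell. ADAM10, the membrane protease that cuts ephrins from the cell surface, fell from 172 ± 4.76 to 152 ± 7.62 CPM with an adjusted p of 0.000192. CBL, a ubiquitin ligase of receptor kinases, was at -0.13 (adjusted p 0.0289), and that p became 0.113 with DESeq2, 0.222 without vector replicate 1 and 0.259 without ELAPOR1 replicate 3. Limma on FPKM also ended the calls of LYN, GRB7 and CBL, with adjusted p of 0.0527 to 0.319 over its 3 settings, and, with no filter, those of SRC (0.0734) and ADAM10 (0.0688). CBL was at 0.0678 without vector replicate 3.

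**Figure D4:**
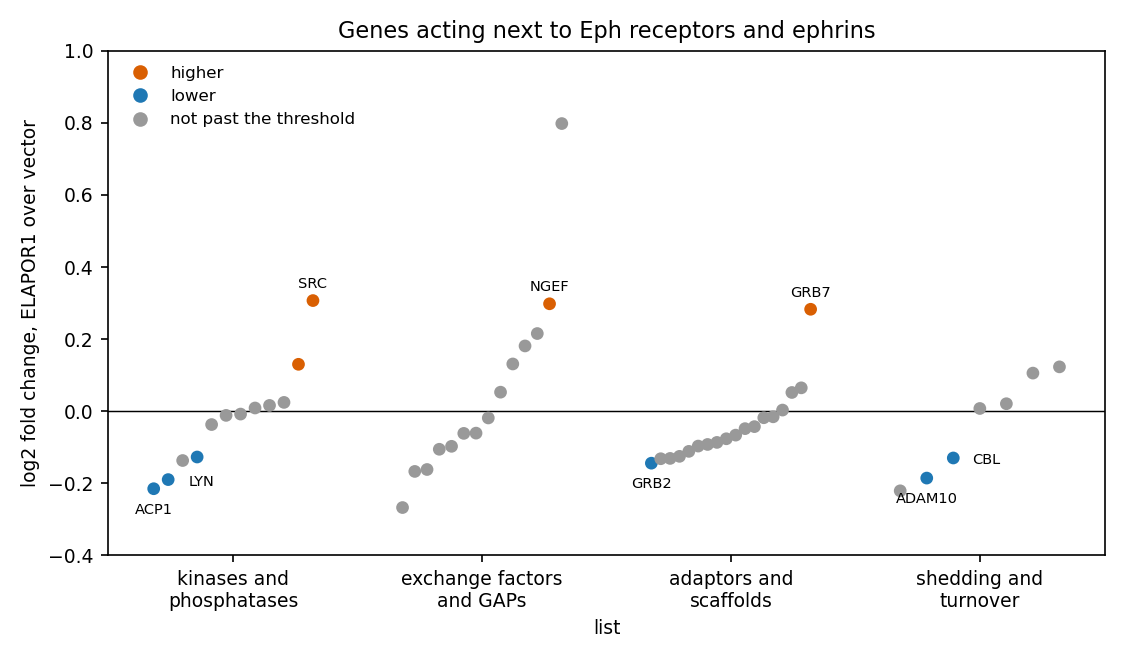
Log2 fold change of ELAPOR1 over vector for the 51 tested genes of the 4 partner lists, 1 point per gene, with called genes in colour and up to 3 per list named. Most points lie within 0.2 of 0, and SRC at 0.31 and NGEF at 0.30 lie farthest out among called genes, while the uncalled CHN2 stands at 0.80.

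Of 14 Wnt target and crypt base genes other than the Eph receptors, 7 rose and 1 fell, where 10.0% of all tested genes rose and 11.4% fell. Their median was 0.16 on the log2 scale, beside 0.00407 over all tested genes. This list was chosen with earlier results of these data known, so its share and median are descriptions only. CD44, an adhesion receptor, rose by 0.90, LGR5, the receptor that marks crypt stem cells, by 0.81, and NOTUM, a secreted Wnt inhibitor, from 331 ± 11.7 to 412 ± 11.5 CPM (adjusted p 9.81e-13 by edgeR). The gene that fell was SOX9, by 0.12. The alternative settings were not applied to the genes of this list. Of the pair regulated with these genes in the crypt, EPHB2 was called and EPHB3 was not.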

How the data were processed

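Poly(A) RNA was sequenced from 3 vector and 3 ELAPOR1 samples. Columns were matched by name, with NC read as the negative control and K as ELAPOR1, once KIAA1324. Read counts were deposited unnormalized. The submitters' processing notes list GRCh38 and the tools DESeq2, HTSeq 0.6.1, HISAT2 2.0.1 and cutadapt 1.9.1. The deposited FPKM values lay within 0.005 of the count divided by exonic size and library total, so the total includes the ELAPOR1 counts. The authors' deposited log2 fold changes and p-values are quoted for EPHA4, EFNA4 and EFNB2 and for the calls among the 10 genes. Libraries of a group differed by more than sampling noise (2.45 to 3.50 as mean chi-square for each gene), so none were merged.

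All genes were fitted together in edgeR 4.0.16 under R 4.3.3: genes were kept by filterByExpr, scaled by TMM and compared by the two-sided quasi-likelihood test. The SE is the absolute log2 fold change divided by the root of the F statistic. Alternatives were DESeq2 1.42.0; limma 3.58.1 on FPKM with a pseudocount of 1 or 0.1 and a minimum of 0.5 FPKM in 3 libraries, or with no minimum; scaling by RLE or by library size alone; fits with no count filter, or with 10 counts throughout a group; a replicate block; and fits without the ELAPOR1 gene or without any 1 library. The edgeR script was checked on simulated counts.

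The 10 genes and all lists were chosen with earlier results of these data known. The text names all 10, the genes overlapping them and up to 3 called genes with the largest change in each list reported; 1 partner list is not reported here and enters no count of partner genes. CHN2, SOX9 and the marker genes were named after their values were seen. RefSeq promoters were matched by symbol for 10 of 10 genes.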

Additional observations from a re-analysis of the deposited data

How the results depend on the processing

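Of the 10 genes, EPHB2 kept its direction and call under all 16 alternatives. EPHA2, EPHA4, EFNA4 and EFNB2 kept their direction and lost their call under 1, 5, 6 and 3 of them, and no uncalled gene of the 10 was called under any. The count of 5 became 3 with DESeq2 and 2 with limma on log2(FPKM + 1) with no filter, and 3 to 4 when 1 library was left out; it was 3 without vector replicate 2 and 3 without vector replicate 3. The authors' deposited table called 5. The count of 3427 genes over the whole table became 2352 with DESeq2 (1035 higher and 1317 lower, of 15736 tested), 2133 and 2098 with limma on FPKM at pseudocounts of 1 and 0.1, 1378 with no filter on FPKM (713 higher and 1385 lower at 0.1, 452 and 926 with no filter), and 2723 to 3187 with 1 library left out. The cause was not tested for DESeq2 and FPKM; a left-out library leaves fewer samples. The sign of 2 uncalled genes turned. With 1 library left out, EFNA1 ranged from -0.21 to 0.012 on the log2 scale, the last without vector replicate 2. EPHA1 ranged from -0.21 to 0.13, with 0.00474 without vector replicate 2 and 0.13 without ELAPOR1 replicate 1. With the replicate block, 3361 genes and 5 of the 10 were called, and no call among the 10 changed. Same-numbered libraries deviated with correlations of -0.022, -0.035 and -0.021, so the numbers were not treated as a pairing. For EFNB3 and the 8 named partner genes the same settings were applied after their calls were seen: 2 of these 9 kept their call under all, 7 lost it under at least 1, and none changed direction. Depth limits EFNA4, EFNB3 and EPHB4, with as few as 13, 17 and 61 counts in a library.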

Other observations

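EFNA4, the called gene of the 10 with the largest absolute log2 fold change, was also compared with every gene of at least 1 CPM on average, as log2 CPM over the 6 libraries. Of 14287 genes, 613 had a Pearson r above 0.9 with it. The closest were HSD17B11 at 0.999, PRDM16 at 0.996 and MOK at 0.995, which changed by 0.17, 0.49 and 0.59 on the log2 scale. These r values are descriptions over 6 points from 2 groups, and the group difference is part of each of them.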
